A study of Mus musculus with 6 samples.

Results

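The genes described here are 38 chaperone and folding-quality genes of the mouse, picked by symbol out of the 52550 genes counted in activated splenic T cells. They comprise 24 genes of the endoplasmic reticulum (ER), 10 of the cytosolic heat shock system and 4 of the mitochondrion. All 38 were found under 1 gene identifier each, and all 38 passed the filter on low counts, so none was lost before testing. The samples were CD3+ T cells from the spleen of wild-type mice, cultured in RPMI medium with serum and activated for 24 h with anti-CD3/CD28. In 3 samples the cells received the activator alone (TCR alone). In the other 3, DMGV (dimethylguanidino valeric acid, a product of methylated arginines) was also added, at 100 ng/ml (TCR+DMGV). The labels name the agent DMGV, whereas the study's legend for this experiment names LNY1, the arginine-derived inhibitor purified from conditioned medium, at the same dose. The legend calls the samples of a group independent biological samples. The study's methods give an age of 6 to 8 weeks and both sexes for its mice and name C57BL among the strains used, but do not tie a strain or sex to these samples. Whether each sample came from its own mouse is not given in the sources used here, and there was no unstimulated sample. The comparison therefore asks how the added agent altered T cells that had all been activated.

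Chaperones bind unfolded or newly made proteins and keep them from aggregating. In the ER, unfolded proteins are sensed by IRE1, ATF6 and PERK, which raise the transcription of folding enzymes, disulfide isomerases and the machinery that returns misfolded proteins to the cytosol for degradation. In the cytosol, heat or oxidant damage releases the factor HSF1 from chaperones and induces HSP70 and HSP90 genes, and mitochondria have their own chaperones for imported proteins. Activated T cells enlarge and make secretory and membrane proteins at a high rate. Without an unstimulated sample, whether activation changed the level of any member was not tested here.

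None of the 38 chaperone genes differed between the groups at an adjusted p under 0.05 (edgeR's quasi-likelihood test with Benjamini-Hochberg adjustment over 14786 genes), and the adjusted p of every member was 0.999. Among all genes tested, 2 passed, or 0.0135%. At an unadjusted p under 0.05 the members called were again 0 of 38, against 3.19% of all genes, and the smallest unadjusted p was 0.0897 for Hspa1a. DESeq2 called 0 members by either threshold. Among all genes it called 14 at the adjusted threshold, and its share at the unadjusted one is not given here. The mean was higher in TCR+DMGV for 16 members and lower for 22. The median log2 fold change of the members was -0.01, beside 0.00 for all genes tested. Of the 38, 28 had a log2 fold change of at most 0.1 in either direction. For 30 members the 95% interval of the fold change lay wholly inside 1.5-fold either way, so a group difference larger than that is outside their intervals. For the other 8 (Hsp90b1, Dnajb9, Pdia3, Xbp1, Sel1l, Hspa1a, Hspa1b and Hsp90aa1) the interval reached past 1.5-fold in at least 1 direction, so a difference of that size lies within it.

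**Figure D1:**
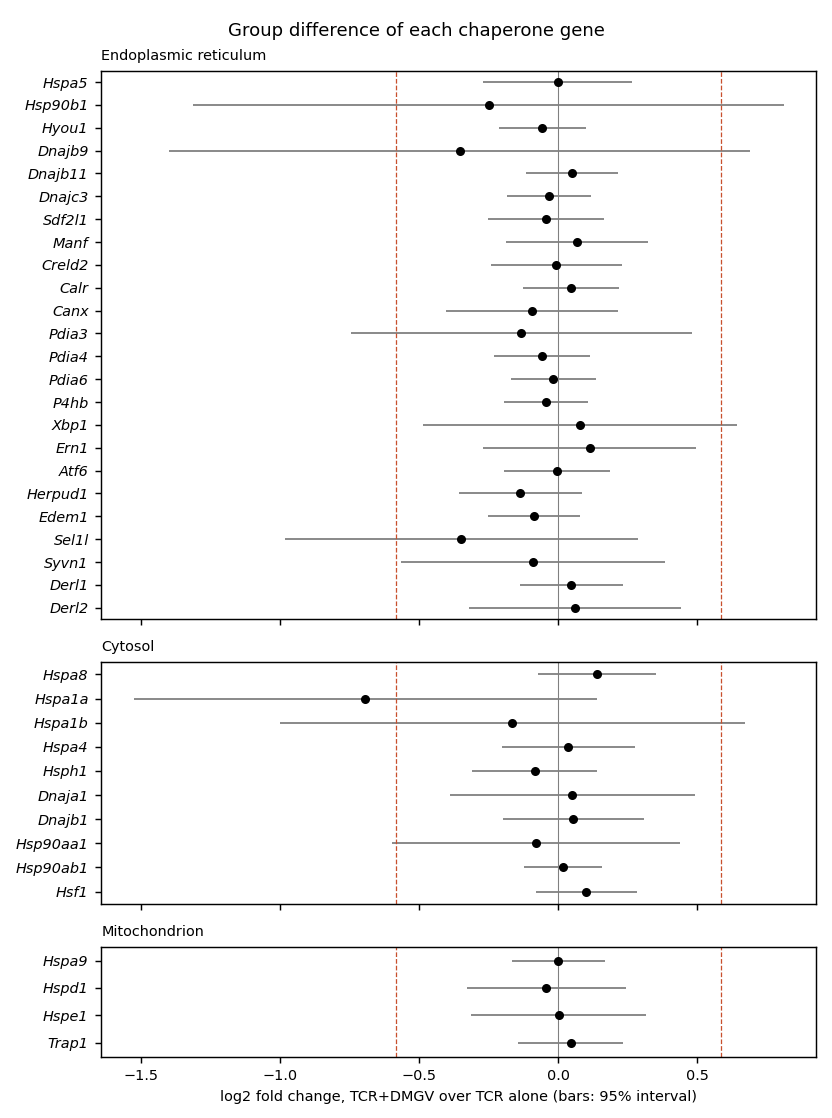
Log2 fold change of each chaperone gene, TCR+DMGV over TCR alone (x axis), with its 95% interval, in rows by compartment. Points stand for the fitted fold change and grey bars for its interval, and the dashed lines mark 1.5-fold in either direction. All 38 intervals cross 0, and the widest are those of Hsp90b1, Dnajb9, Hspa1a and Hspa1b.

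The 6 libraries were not alike in ways that the groups explain. On a principal component analysis of all genes tested, 44.9% of the variance fell on the leading axis, where TCR alone replicate 3 and TCR+DMGV replicate 1 scored 23.6 and 22.1, whereas the other 4 libraries scored from -19.7 to -4.9. Genes of low GC content had lower values in those 2 libraries, and several chaperone genes move with this, as given beside each of them below. Summed counts ran from 37758725 to 43718867 per library, which is more than the read depth stated in the labels. T cell identity was clear, since all 14 T cell markers were at 1 CPM or more (counts relative to the TMM-scaled library total) and summed to between 4188 and 4564 CPM in TCR alone and between 4531 and 4815 CPM in TCR+DMGV. Of other cell types, the B cell markers summed to 11.2 to 13.7 CPM and 12.9 to 13.4 CPM, the macrophage markers to 8.67 to 11.6 CPM and 9.01 to 10.7 CPM, and the dendritic cell markers to 7.23 to 9.74 CPM and 7.87 to 9.8 CPM. The NK cell markers summed to 82.6 to 89.6 CPM and 87.1 to 96.9 CPM. Nearly all of that sum came from Eomes (53.2 to 71.9 CPM), Klrk1 and Klrc1, whereas Ncr1, Klrb1c and Klra8 were each under 1 CPM in every library. The erythroid markers summed to 3.72 to 4.93 CPM and 1.75 to 3.72 CPM, and neutrophil markers did not exceed 0.105 CPM. Plasma cells are rich in ER chaperones. Without Irf4, which activated T cells also express, their markers summed to 13.9 to 19.1 CPM in TCR alone against 13.3 to 15.9 CPM in TCR+DMGV, and Tnfrsf17 was at 0 in all 6 libraries.

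Promoter sequences were searched for fixed forms of the elements that stress factors are known to bind. RefSeq promoters on GRCm38.p6, from 250 bases before to 50 bases after the annotated start, were matched for 29 of the 38 members. The ER stress response element, the site of ATF6 and XBP1 with NF-Y, was searched on both strands as CCAAT, then 9 bases of any kind, then CCACG. It was found in 8 of 20 ER members with a promoter, in 0 of 6 cytosolic and 0 of 3 mitochondrial members, and in 0.119% of all 32851 promoters. The 4 members below are shown because they are the main lumenal and lectin chaperones whose values follow, and capitals mark the fixed bases of the element, written 5′ to 3′ on the strand that holds it.
Hspa5: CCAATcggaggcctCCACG
Hsp90b1: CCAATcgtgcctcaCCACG
Calr: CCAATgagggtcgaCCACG
Canx: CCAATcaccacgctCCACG
The Hspa5 element lies at chr2:34772025-34772043 on the strand of the gene, with 46 bases between it and the RefSeq start. Distances here are to the RefSeq start, which can differ from the gene bounds of GENCODE M21 given for the genes below, and in that annotation the Hspa5 element falls inside the gene. That of Hsp90b1 lies at chr10:86705533-86705551 on the opposite strand, 88 bases from the RefSeq start, and a further copy lies at chr10:86705638-86705656 on the strand of the gene. The Calr element is at chr8:84847075-84847093 on the opposite strand and the Canx element at chr11:50325800-50325818 on the strand of the gene. The other members with the element were Creld2, Dnajc3, Pdia6 and Syvn1. A shorter form (ATTGG, any base, CCACG) was found in Dnajb11 and Herpud1 and in 0.0365% of all promoters. The log2 fold changes of the 8 members with the long element ran from -0.25 to 0.05 with a median of -0.03, 1 of them higher and 7 lower in TCR+DMGV and none past the test. The CCAAT box alone, which overlaps the long element, was in 18 of 20 ER, 5 of 6 cytosolic and 1 of 3 mitochondrial members and in 37.4% of all promoters.

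The level of each gene per length was read from the deposited FPKM values, in which fragments are divided by gene length and library size. Hsp90ab1, the constitutive cytosolic HSP90, was the most abundant member with 2012 ± 77.9 FPKM in TCR alone against 2013 ± 11.6 FPKM in TCR+DMGV (SD, n = 3 each). Hspa8, the constitutive HSP70, came next with 825 ± 56.7 FPKM in TCR alone, followed by the mitochondrial chaperonin Hspd1 with 694 ± 93.6 FPKM, and the values of these neighbours overlapped. Hsp90aa1, the more inducible HSP90, had 442 ± 99.6 FPKM and Calr 343 ± 25.5 FPKM, and these too overlapped. The lowest members were Ern1 with 0.674 ± 0.112 FPKM, Hspa1b with 0.603 ± 0.189 FPKM and Hspa1a with 0.318 ± 0.105 FPKM. The cells therefore held the constitutive HSP70 and HSP90 at the top of the range and the inducible HSP70 pair at its bottom. In that order 28 of the 37 neighbouring pairs overlapped in their TCR alone values. Counts per kilobase, taking the mean transcript length weighted by transcript counts, gave the same 10 leading genes, but Hsp90ab1 exceeded Hspa8 by a ratio of 1.62 on that scale and 2.44 in FPKM, and Dnaja1 moved by 11 ranks, so single positions depend on the gene length used.

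**Figure D2:**
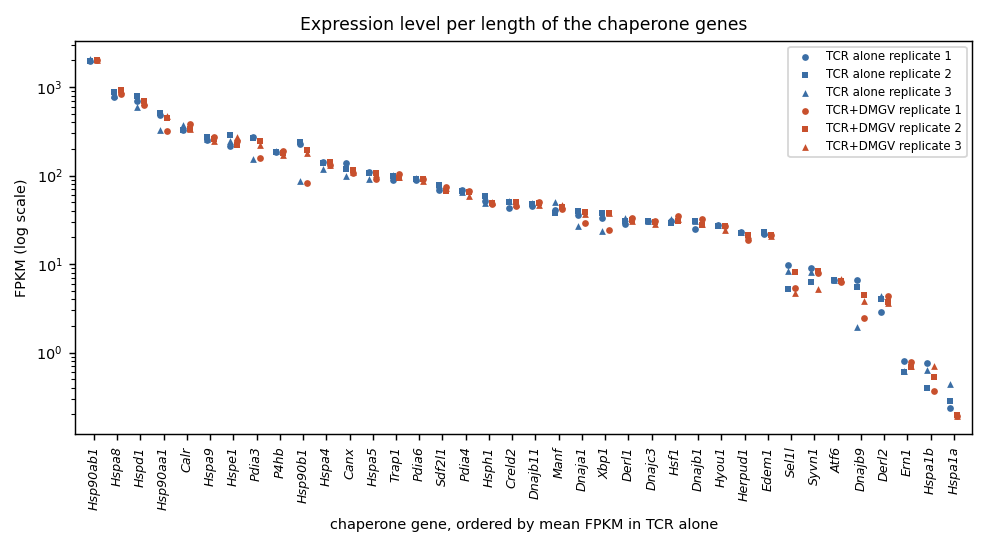
FPKM of each chaperone gene in each sample (y axis, log scale), with genes ordered along the x axis by their mean in TCR alone. Blue symbols are the TCR alone and orange symbols the TCR+DMGV samples, with 1 symbol shape per replicate number. Hsp90ab1 lies at the top near 2012 FPKM and Hspa1a at the bottom at 0.318 FPKM, and the replicates of Hsp90b1, Pdia3 and Dnajb9 spread most visibly within each group.

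Among the 9 lumenal folding genes, 2 had a higher and 7 a lower mean with DMGV, and their median log2 fold change was -0.03. Hspa5 (BiP, the ER's HSP70 and the usual marker of the unfolded protein response, at chromosome 2 from 34771970 to 34777547 on GRCm38) had 521, 514 and 420.2 CPM in TCR alone against 428, 512 and 513 CPM in TCR+DMGV. The low libraries were replicate 3 of the first group and replicate 1 of the second, and the groups overlapped fully. Its log2 fold change was 0.00 (standard error 0.11), with a fold change of 0.999 and a 95% interval from 0.829 to 1.2. Hsp90b1, the ER's HSP90, had 1019.7, 1096 and 384 CPM in TCR alone against 366, 896 and 840 CPM in TCR+DMGV. It showed the same low pair of libraries with a spread of 3-fold between the highest and the lowest. Its group difference of -0.25 (standard error 0.45) was smaller than that spread, and the interval of its fold change ran from 0.403 to 1.76. The bounds of Hsp90b1 overlap the pseudogene 1810014B01Rik on the other strand by 4598 bases.

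Hyou1, a nucleotide exchange factor for BiP, had 223, 221 and 221 CPM in TCR alone against 215, 220.1 and 203 CPM in TCR+DMGV, where every treated value lay just below the controls. Its fold change was 0.961 with an interval from 0.863 to 1.07 (adjusted p = 0.999, edgeR), and in FPKM the groups overlapped. Dnajb9, a co-chaperone that delivers substrates to BiP, had 18.6, 16 and 5.46 CPM in TCR alone against 6.9, 13.1 and 11.3 CPM in TCR+DMGV. Replicate 3 of the first group and replicate 1 of the second were again the lowest, and the fold change of 0.782 had an interval from 0.379 to 1.61. The other 5 lumenal genes (Dnajb11, Dnajc3, Sdf2l1, Manf and Creld2) had fold changes from 0.971 to 1.05. Dnajc3, a BiP co-chaperone and inhibitor of PERK, was the steadiest of them, with a ratio of 1.06 between its highest and lowest library. The Manf model overlaps Dcaf1 on the other strand and Rbm15b on its own, so its counts are uncertain.

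The lectin chaperones calreticulin and calnexin hold glycoproteins while they fold. Calr had 1058, 1081 and 1178 CPM in TCR alone against 1201, 1102 and 1120.2 CPM in TCR+DMGV. Its highest values were in the libraries where Hspa5 and Hsp90b1 were lowest, and its fold change was 1.03 with an interval from 0.916 to 1.16. Canx had 626 ± 109.5 CPM and 586 ± 38.6 CPM (SD, n = 3 each), a fold change of 0.937 with an interval from 0.756 to 1.16. All 4 protein disulfide isomerases had slightly lower means in TCR+DMGV, with log2 fold changes from -0.13 for Pdia3 to -0.02 for Pdia6 and none past the test. Pdia3, the isomerase that works with calreticulin and calnexin, had 955, 957 and 535 CPM in TCR alone against 544, 884 and 804 CPM in TCR+DMGV. The low pair of libraries was the same as for Hsp90b1. Pdia4 had 186, 182 and 172 CPM against 176, 179 and 164 CPM, a fold change of 0.961 with an interval from 0.854 to 1.08. Pdia6 and P4hb, the most abundant isomerase after Pdia3, varied little, with ratios of 1.06 and 1.09 between their extreme libraries.

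The sensors were among the least abundant members, Ern1 ranking 36 and Atf6 33 of 38 by FPKM. Ern1, which encodes the sensor IRE1, had 7.37, 5.68 and 5.6 CPM in TCR alone against 7.08, 6.39 and 6.71 CPM in TCR+DMGV, and the groups overlapped with a fold change of 1.08 (interval 0.83 to 1.41). Atf6, whose product is cut and released as a transcription factor under ER stress, had 68.5, 69.9 and 67.3 CPM and 64.2, 68.5 and 72.2 CPM. Its fold change was 0.996 with an interval from 0.873 to 1.14. Xbp1 (chromosome 11 from 5520659 to 5525893), the target of IRE1, had 121, 142 and 85.1 CPM in TCR alone against 86.7, 141 and 139.9 CPM in TCR+DMGV. Replicate 3 of the first group and replicate 1 of the second lay apart below the others, and the fold change of 1.06 had an interval from 0.714 to 1.56.

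IRE1 acts on Xbp1 by cutting a short segment out of its mRNA, after which the spliced form encodes the active factor. The segment is shown within the reference transcript Xbp1-201, with the 26 bases that IRE1 removes in capitals.
Xbp1: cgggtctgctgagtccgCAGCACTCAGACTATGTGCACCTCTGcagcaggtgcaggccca
These 26 bases lie at chr11:5524279-5524304 on the forward strand of GRCm38, in exon 4 of Xbp1-201 and within its coding sequence. With them the open reading frame of the transcript is 267 residues long, and without them it is 371 residues long. The table held 4 Xbp1 transcripts, and 0 of them had an intron of 26 bases, the shortest being 300 bases. The deposited counts therefore hold no separate value for the IRE1-spliced form, and splicing of Xbp1 was not analysed here. Of the transcripts counted, Xbp1-201 took 95.9 ± 1.36% of the gene's counts in TCR alone against 96 ± 1.08% in TCR+DMGV (SD, n = 3 each, two-sided exact permutation test p = 1.0). The share of Xbp1-203, a minor protein-coding transcript, was 0.76, 0.67 and 0.77% in TCR alone against 0.31, 0.71 and 0.47% in TCR+DMGV. These values overlapped (exact permutation test p = 0.2, adjusted p = 0.8 over 4 transcripts), and the smallest p that 3 samples against 3 allow is 0.1.

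The 6 genes of ER-associated degradation, which extract misfolded proteins for the proteasome, had log2 fold changes from -0.35 to 0.06 around a median of -0.09. Herpud1, a scaffold of the degradation complex, had 59.6, 60.3 and 58.5 CPM in TCR alone against 48.5, 56.9 and 56.9 CPM in TCR+DMGV. All 3 treated values lay below the controls, by a fold change of 0.91 with an interval from 0.781 to 1.06. Sel1l, the adaptor of the ubiquitin ligase, had 94.2, 51.9 and 77.8 CPM and 50.2, 79.3 and 46.4 CPM. It varied 2.03-fold between libraries in a pattern that followed neither the groups nor the low pair of libraries, and its fold change of 0.786 had an interval from 0.506 to 1.22. Syvn1, the ligase itself, had 47.5, 34.1 and 42.7 CPM and 42.2, 45.9 and 28.5 CPM, with its 2 lowest values in libraries where Sel1l was also low. The gene overlaps Mrpl49 on the other strand by 91 bases. Edem1, which passes mannose-trimmed glycoproteins to degradation, had 157, 172 and 164 CPM and 151, 158 and 154 CPM, a fold change of 0.941 with an interval from 0.839 to 1.06. Derl1 and Derl2, which form the exit channel, had fold changes of 1.03 and 1.04. Derl2 overlaps Mis12 on the other strand by 231 bases.

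**Figure D3:**
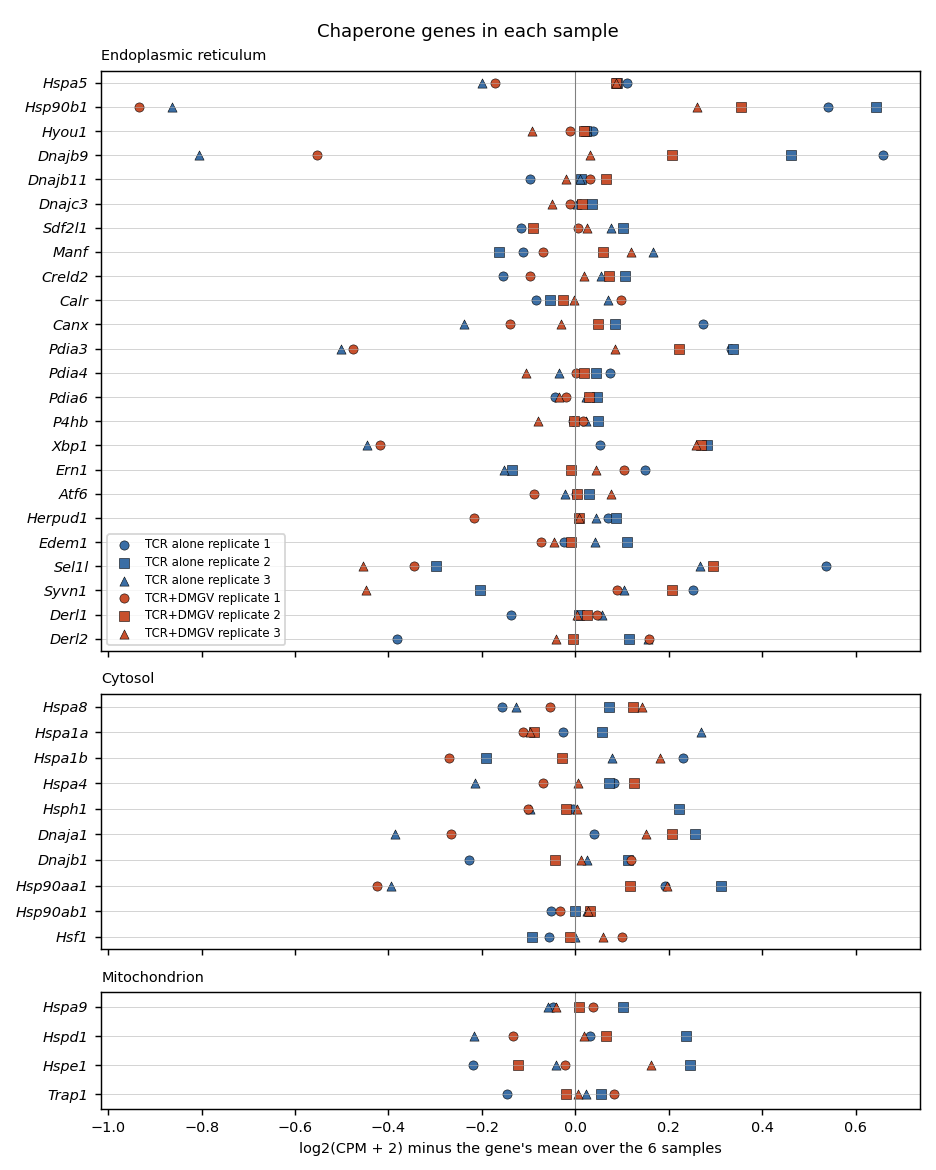
Each chaperone gene in each of the 6 samples, as log2(CPM + 2) minus the gene's mean over all samples (x axis), in rows by compartment. Blue symbols are TCR alone, orange symbols TCR+DMGV, and shapes are replicate numbers. For Hsp90b1, Dnajb9, Pdia3, Xbp1, Dnaja1 and Hsp90aa1 the 2 lowest symbols are TCR alone replicate 3 and TCR+DMGV replicate 1, so the groups overlap.

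In the cytosol, Hspa8 folds proteins in unstressed cells. It had 3731, 4374 and 3807 CPM in TCR alone against 4007, 4534 and 4591 CPM in TCR+DMGV, with the treated values toward the upper end but overlapping. The log2 fold change was 0.14 (standard error 0.09, unadjusted p = 0.162 and adjusted p = 0.999, edgeR), and the interval of the fold change was 0.952 to 1.28. Its partners Hspa4 and Hsph1, which release nucleotide from HSP70, had fold changes of 1.03 and 0.943. Hsph1 had 414, 485 and 388 CPM against 387, 409.7 and 417 CPM, with TCR alone replicate 2 the highest. The J-domain co-chaperones Dnaja1 and Dnajb1 both had a fold change of 1.04. Dnaja1 overlaps Smu1 on the other strand by 608 bases.

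Hspa1a and Hspa1b, the heat-inducible HSP70 genes, were near the limit of what was counted. For Hspa1a, the deposited counts were 30, 39 and 59 in the controls and 28, 29 and 26 with DMGV. These correspond to 0.79, 0.956 and 1.43 CPM and to 0.629, 0.673 and 0.656 CPM. All 3 treated values lay below the controls, and the highest control was replicate 3. The fold change of 0.618 had an interval from 0.347 to 1.1 and did not pass the test (unadjusted p = 0.0897, adjusted p = 0.999, edgeR). Without TCR alone replicate 3 the log2 fold change was -0.41 in place of -0.69. Hspa1b had 2.42, 1.3 and 1.98 CPM against 1.12, 1.7 and 2.27 CPM, and these overlapped (fold change 0.892, interval 0.5 to 1.59). Of the 50-base windows of the Hspa1a transcript, 58.8% also occur in Hspa1b, and how reads matching both were divided is not given in the sources used here, so the split between them is uncertain.

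Hsp90aa1 had 2125, 2308 and 1414 CPM in TCR alone against 1383, 2016 and 2131 CPM in TCR+DMGV, and its low values were again in TCR alone replicate 3 and TCR+DMGV replicate 1. Its fold change was 0.946 with an interval from 0.66 to 1.35. Hsp90ab1 was the steadiest abundant member, with 6545, 6784 and 6912 CPM and 6634, 6936 and 6916 CPM. Its standard error of 0.06 on the log2 scale was the smallest in the set, and its fold change was 1.01 with an interval from 0.919 to 1.11. No 50-base window was shared exactly between the 2 HSP90 transcripts. Windows with mismatches and other copies in the genome were not searched. Hsf1, the factor that induces the heat shock genes, had 68.8, 67.1 and 71.6 CPM and 76.8, 71.1 and 74.7 CPM. TCR+DMGV replicate 2 lay below the highest control, and the fold change of 1.07 had an interval from 0.946 to 1.22.

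In the mitochondrion, Hspa9, which pulls proteins through the import channel, had 1116, 1237 and 1107 CPM in TCR alone against 1184, 1159 and 1121 CPM in TCR+DMGV. Its fold change was 1.0 with an interval from 0.891 to 1.12. Hspd1 and Hspe1 encode the chaperonin and its lid. Hspd1 had 2058, 2373 and 1731 CPM and 1835, 2106 and 2041 CPM, and Hspe1 had 352, 486 and 398 CPM and 403, 376 and 459 CPM. Both overlapped between groups, and their fold changes were 0.971 (interval 0.796 to 1.18) and 1.0 (interval 0.806 to 1.25). Trap1, the mitochondrial HSP90, had 254, 292 and 286 CPM and 298, 278 and 283 CPM, with a fold change of 1.03 and an interval from 0.906 to 1.17.

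Hspd1 and Hspe1 are transcribed in opposite directions from 1 stretch of chromosome 1, and as annotated they overlap by 112 bases, so reads there cannot be divided between them where strand was not used in counting. The heat shock element, the site of HSF1, was searched on both strands as 3 alternating GAA and TTC units with 2 free bases between them. It was found in the shared promoter of this pair and in that of Hsph1, and in 0.603% of all promoters. That is 2 of 3 mitochondrial, 1 of 6 cytosolic and 0 of 20 ER members with a promoter. Hspa1a and Hspa1b had no match to this fixed form, and looser forms or sites farther away were not searched. The element is shown on the strand of each gene, with capitals for the units.
Hspe1: TTCtaGAAccTTC
Hspd1: GAAggTTCtaGAA
Hsph1: TTCtgGAAagTTC
The Hspe1 and Hspd1 lines are the same bases, at chr1:55088059-55088071, read from either side, with 76 bases to the RefSeq start of Hspe1, and inside the GENCODE M21 bounds of Hspd1. An overlapping match lies at chr1:55088064-55088076. The Hsph1 match lies at chr5:149636288-149636300, not wholly before the RefSeq start, and inside the GENCODE M21 bounds of Hsph1. The log2 fold changes of these 3 genes ran from -0.08 to 0.00, with none past the test.

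Across compartments, the median log2 fold change was -0.04 for the ER members (7 higher and 17 lower), 0.03 for the cytosolic members (6 higher and 4 lower) and 0.00 for the mitochondrial members (3 higher and 1 lower). Leaving out TCR alone replicate 3 turned the cytosolic median to -0.08, and leaving out TCR+DMGV replicate 2 turned it to -0.03, so its sign rests on single libraries. In summed level, the ER members ran from 5735 to 7080 CPM across the 6 libraries, the cytosolic members from 13673 to 15442 CPM and the mitochondrial members from 3522 to 4389 CPM. The 2 lowest ER sums, 5783 and 5735 CPM, were again those of TCR alone replicate 3 and TCR+DMGV replicate 1. In 3 members (Hyou1, Herpud1 and Hspa1a) all treated CPM values lay below all control values, beside 3.94% of all genes, and in 0 members they all lay above, beside 4.92% of all genes. Fewer transcripts per cell and a smaller share of cells expressing a gene cannot be told apart in these bulk samples.

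For 12 of the 38 members the 2 lowest values were those of TCR alone replicate 3 and TCR+DMGV replicate 1, beside 17.2% of all genes tested. They were Hspa5, Hsp90b1, Dnajb9, Canx, Pdia3, Xbp1 and Atf6 of the ER, Hspa4, Hsph1, Dnaja1 and Hsp90aa1 of the cytosol, and Hspd1 of the mitochondrion. GC content ran with this. Over the 38 members, which share their libraries and so are not independent points, the correlation of a member's deviation in a library with the GC content of its transcripts (mean weighted by counts) was 0.58 in TCR alone replicate 3 and 0.39 in TCR+DMGV replicate 1, and it ran from -0.50 to -0.19 in the other 4 libraries. Dnajb9 has a GC content of 40.6%, Canx 42.3%, Dnaja1 42.9%, Hsp90aa1 43% and Hsp90b1 43.8%. Dnajc3, at 43.2%, did not move with them. Its log2 deviation was 0.003 in TCR alone replicate 3 and -0.012 in TCR+DMGV replicate 1. Among all genes expressed well enough to follow the trend, the fifth of lowest GC content (32.4 to 44.5%) had a median log2 deviation of -0.26 and -0.19 in those 2 libraries and of 0.06 to 0.19 in the other 4. Removing each library's GC trend left 0 members past the threshold and gave log2 fold changes of -0.20 for Hsp90b1 and -0.21 for Dnajb9. Xbp1, at 52.9% GC, was also low in both libraries. The part of GC content in these values was not tested further.

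**Figure D4:**
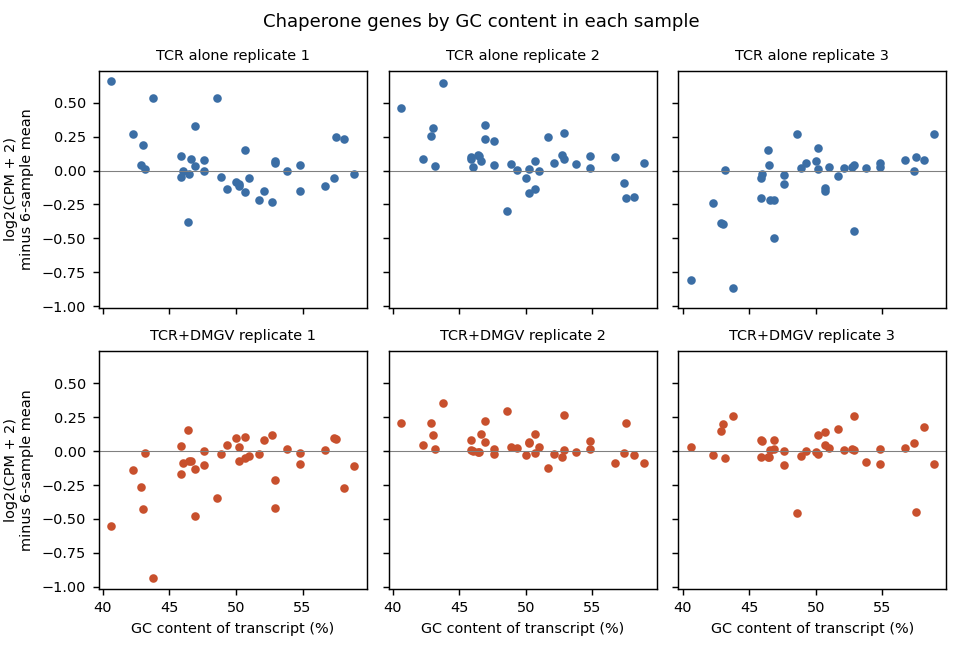
Deviation of each of the 38 chaperone genes from its 6-sample mean (y axis, log2(CPM + 2) scale) against the GC content of its transcript in percent (x axis), with 1 panel per sample and TCR alone in the upper row. Points rise with GC content in TCR alone replicate 3 (r = 0.58) and TCR+DMGV replicate 1 (r = 0.39) and not in the other 4 samples.

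The transcript table held 171 transcripts of the 38 genes, of which 125 passed the filter. None of the 125 passed an adjusted p under 0.05 (edgeR on all 38401 transcripts tested, of which 0.0% passed), and 2 had an unadjusted p under 0.05, beside 3.22% of all transcripts. They were the non-coding Hspa8-209, with 2277, 2734 and 2544 counts in TCR alone against 5369, 3050 and 4459 counts in TCR+DMGV (log2 fold change 0.69, standard error 0.22), and the intron-retaining Hyou1-203, with 490, 440 and 611 counts and 283, 335 and 292 counts (log2 fold change -0.84, standard error 0.22). DESeq2 called 0 member transcripts as well. At an unadjusted p under 0.05 it had 4, and its share over all transcripts is not given here, so that count is not read further. In some genes the division of counts among transcripts differed widely between libraries. Hsp90aa1-201 took 76.6, 80.62 and 0.01% of the Hsp90aa1 counts in TCR alone against 70.05, 74.63 and 74.95% in TCR+DMGV, and in TCR alone replicate 3 the counts stood under Hsp90aa1-202 (90.49%). Dnajb11-203 took 44.77, 37.18 and 35.46% in TCR alone against 2.04, 41.28 and 1.09% in TCR+DMGV, while the gene as a whole had a ratio of 1.12 between its extreme libraries. In Hspa8 and Xbp1 the leading transcript kept at least 75.12% and 94.35% in every library.

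**Figure D5:**
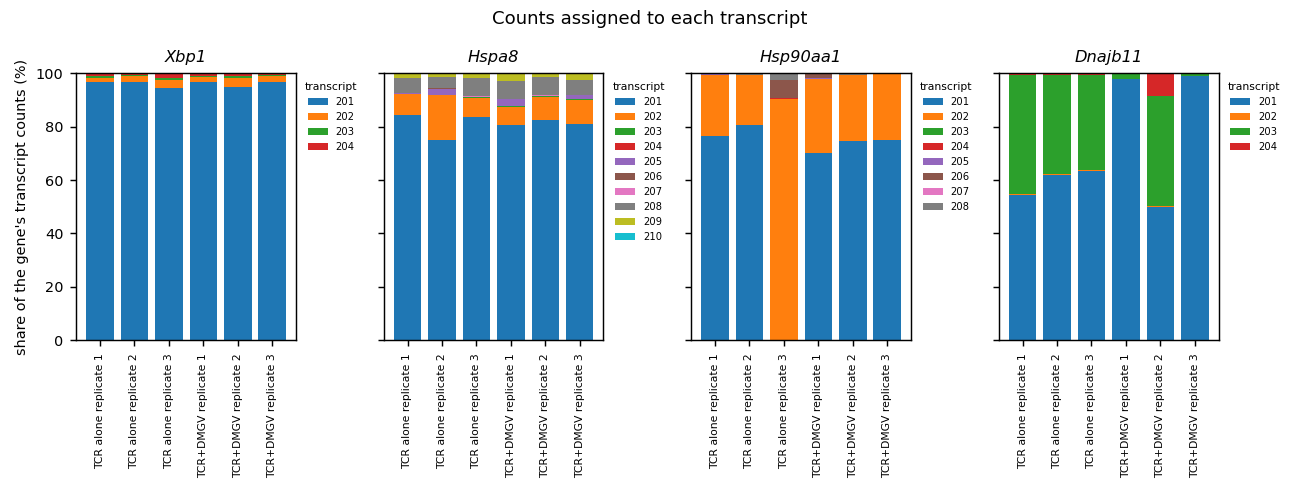
Share of the transcript counts of Xbp1, Hspa8, Hsp90aa1 and Dnajb11 (y axis, percent) that each annotated transcript took in each of the 6 samples (bars), with colours for the transcripts of a gene. Xbp1-201 holds at least 94.35% in every sample, whereas Hsp90aa1-201 falls to 0.01% in TCR alone replicate 3 and Dnajb11-203 to 2.04% and 1.09% in TCR+DMGV replicates 1 and 3.

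Further genes of the same systems were compared in the same fit. Of 69 other ER folding, transport and degradation genes, 68 were tested, and 0 had an adjusted p under 0.05, with 36 higher, 32 lower and a median log2 fold change of 0.01. At an unadjusted p under 0.05 there was 1, Ero1lb, an oxidase that recharges disulfide isomerases, with 9.35 ± 0.76 CPM in TCR alone against 7.07 ± 1.23 CPM in TCR+DMGV (SD, n = 3 each, adjusted p = 0.999, edgeR). Dad1, a subunit of the oligosaccharyltransferase, had 112 ± 18.1 CPM and 133 ± 12.6 CPM. Of 56 other cytosolic chaperone genes, 53 were tested and 0 passed either threshold, with 36 higher, 17 lower and a median of 0.05. The smallest p among them belonged to Dnajc7, an HSP70 and HSP90 co-chaperone, with 212 ± 21.8 CPM and 243 ± 9.68 CPM, and to Cct7, a subunit of the cytosolic chaperonin, with 771 ± 84.6 CPM and 854 ± 29.2 CPM. Of 31 other mitochondrial import and quality-control genes, 31 were tested and 0 passed either threshold, with 22 higher, 9 lower and a median of 0.04. Grpel2, an exchange factor for Hspa9, had 29.5 ± 2.1 CPM and 33.2 ± 0.919 CPM, and the prohibitin gene Phb had 329 ± 37.8 CPM and 365 ± 5.13 CPM. DESeq2 called 0 genes in each of the 3 lists at either threshold. Beside these counts, 0.0135% of all genes passed the adjusted and 3.19% the unadjusted threshold in edgeR. The DESeq2 share at the unadjusted threshold is not given here, and the counts in the lists are not read further.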

How the data were processed

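RNA of 6 samples was sequenced as mRNA libraries. The authors used SOAPnuke to filter reads, HISAT2 2.0.4 to map them and StringTie for expression. The submitters' processing notes name mm9. The deposited counts are raw whole numbers for each gene and each transcript. How they were derived from StringTie, and whether strand was used, is not given in the sources used here. The deposited FPKM values are relative to length and library size. Of the gene identifiers, 99.72% matched GENCODE M21 (GRCm38) without their version, and symbols and coordinates come from that annotation. Genes of the mitochondrial genome had 0 counts and were not used.

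Gene and transcript counts were fitted with edgeR 4.0.16 (R 4.3.3; TMM, default expression filter, two-sided quasi-likelihood test, Benjamini-Hochberg over 14786 genes). P-values set the group difference against the spread between samples, and whether that spread is one between mice is not given in the sources used here. Standard errors and 95% intervals come from that fit. Deviations used log2(CPM + 2). Shares of Xbp1 transcripts were compared by exact permutation. Every member may be named. Values per sample are given for the 10 members of smallest p and for 16 further core members, some in both sets, and 2 genes are named from each other list. Other values shown, among them those of Syvn1 and of single transcripts, were picked with their values known. The members, lists and tests were chosen with earlier results of these data known. The fits were tested on simulated data. Alternatives were DESeq2 1.42.0, other normalizations and filters, limma 3.58.1 on FPKM, length and GC trends (loess), a replicate block and samples left out. The GC correction and leaving out both libraries that stood apart were added after seeing the data. Python 3.11.15 with pandas 2.3.3 read the tables.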

Additional observations from a re-analysis of the deposited data

How the results depend on the processing

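No member passed an adjusted p under 0.05 under any of the 19 other settings. Among all genes tested, 0 to 14 passed under those settings, so a count of 0 members lies near the share of all genes. The members at an unadjusted p under 0.05 numbered 0 to 3. In the reported fit 3.19% of all genes were under that threshold, and this share is not given here for the other settings. Of 721 member values under those settings, 67 had another sign than the reported one, and 6 moved by at least 1 standard error: Manf (0.19 without TCR alone replicate 3 and 0.23 without that and TCR+DMGV replicate 1), Sel1l (-0.63 without TCR+DMGV replicate 2), Derl2 and Dnajb1 (-0.12 and -0.06 without TCR alone replicate 1) and Hspa1a (-0.14 on the log2(FPKM + 1) scale, where the pseudocount exceeds its level). With 1 sample left out at a time, the median log2 fold change ran from -0.052 to -0.004 for the ER members, from -0.076 to 0.066 for the cytosolic members and from -0.048 to 0.076 for the mitochondrial members. The difference in the share of Xbp1-203 was -0.451 percentage points by FPKM and -0.238 by counts (exact permutation test p = 0.2 for both), and with 1 sample left out it ran from -0.344 to -0.145. By FPKM or by library size alone, 3 members did not overlap, with Edem1 in place of Hyou1. The share of all genes on these scales is not given here, so that count is not read further. The deviations of same-numbered samples had correlations of -0.313, 0.207 and -0.265. The highest correlation between the groups, 0.496, joined TCR alone replicate 3 and TCR+DMGV replicate 1, the libraries that stood apart. That difference could mask a shared source, so these values cannot decide whether the numbers pair the samples. With the replicate number as a block the count called was 0 among the members and 0 among all genes. Hspa1a had 26 to 59 counts per library and Hspa1b 50 to 92, the fewest of the members, and what widened the intervals that reach past 1.5-fold was not tested.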
